A study of Neurospora crassa with 12 samples.

Results

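In Neurospora crassa grown in high phosphate (Pi), the transcriptome of the strain labelled Δpac-3 was compared with that of its control, the strain labelled Δmus-52, across all genes. The comparison rests on 6 of the 12 RNA-seq libraries of the series, the 3 biological replicates (I, II and III) of each strain in 10 mM Pi. The remaining 6 libraries hold the same strains in 10 µM Pi (low-Pi) and are used only where a difference between the Pi conditions is tested.

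PAC-3 is the Neurospora member of the PacC/Rim101 family of zinc finger transcription factors, which in fungi carry the signal of ambient pH from the pal genes to the nucleus. In N. crassa the pH pathway and the phosphate pathway of nuc-2, preg, pgov and nuc-1 both bear on secreted enzymes and on transport at the plasma membrane. In Δpac-3 the coding sequence of the gene had been replaced by bar, a herbicide resistance gene, in a strain that already lacked mus-52, so that by its making the control shares the mus-52 deletion. MUS-52 is the Ku80 subunit of non-homologous end joining, and its loss makes gene replacement efficient. In both groups conidia, the asexual spores, were left to germinate for 5 h in medium at pH 5.4 and 30 °C with 44 mM sucrose and 50 mM citrate. The conidia came from cultures of 10 days for Δpac-3 (3 days in the dark and 7 days at room temperature in light) and of 5 days for Δmus-52 (3 and 2 days), so the age of the spores and the strain cannot be told apart in any value given here.

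The deleted genes were examined first. The gene pac-3 (NCU00090) had 129, 181 and 152 CPM (read counts scaled to a common library size with TMM factors) in Δpac-3 high-Pi libraries I, II and III, against 390, 351 and 447 CPM in Δmus-52 high-Pi libraries. The groups did not overlap, but reads of the gene remained, and its log2 fold change of -1.36 ± 0.17 (SE) did not reach the fold threshold. The gene mus-52 had 4, 1 and 36 counts in the libraries labelled Δpac-3, against 1344, 513 and 831 counts in those labelled Δmus-52. For the control libraries these counts contradict the label, and the groups are therefore called by the labels of their libraries throughout. The difference in mus-52 and that in pac-3 cannot be told apart in any result given here.

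Total counts ranged from 28463224 to 33141595 in the libraries labelled Δpac-3 and from 28561952 to 66931215 in those labelled Δmus-52. A count above 0 was found for 8925 to 9078 of the 9730 listed genes in the libraries labelled Δpac-3 and for 8739 to 8943 in those labelled Δmus-52. After the filter on low counts 8284 genes were tested with edgeR's quasi-likelihood test. A gene counted as modulated when its p, adjusted over all these genes after Benjamini and Hochberg, was below 0.05 and its log2 fold change was 1.5 or more in size.

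A total of 757 genes were modulated (9.14% of those tested), of which 600 were up-regulated (7.24%) and 157 down-regulated (1.90%) in Δpac-3. Up-regulated genes thus made up 79.3% of the modulated genes. The excess lay mainly in large changes. By the adjusted p alone, 1560 genes were higher (18.8%) and 1375 were lower (16.6%) in Δpac-3. Among genes with an adjusted p below 0.05, the ratio of higher to lower genes was 1.13 with no demand on the fold, 2.69 where the log2 fold change had to be 1 or more in size, and 3.82 at 1.5 and again at 2. At a log2 fold change of at least 5 there were 31 up-regulated and 11 down-regulated genes. A further 31 genes above and 3 genes below the fold threshold did not pass the adjusted p.

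The distribution of the fold changes had a longer upper tail. The median log2 fold change of all 8284 genes was -0.01, the lower and upper quartiles were -0.34 and 0.48, and the 5th and 95th percentiles were -0.98 and 1.95. When library totals replaced the TMM factors, the median of all genes moved to 0.25, and 799 genes were up-regulated and 125 down-regulated (86.5% up). With median-of-ratios factors the numbers were 606 and 156 (79.5% up).

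Modulated genes of both directions lay mostly at the low end of expression, the up-regulated genes more so. When the genes were divided into 4 equal parts by their mean log2 CPM over the 6 libraries, the lowest part, of up to 7.79 CPM, held 414 up-regulated and 78 down-regulated genes, so that 84.1% of its modulated genes were up-regulated (95% exact binomial interval 80.6 to 87.3%). The part with the highest level, from 76.0 CPM, held 27 and 22, or 55.1% (interval 40.2 to 69.3%). Between them stood 75.0% in the second part and 69.6% in the third. The intervals treat genes as independent, which they are not, and leave out the spread between libraries. By the adjusted p alone the balance turned over along the range: in the lowest part 687 genes were higher and 167 lower in Δpac-3, and in the highest part 191 were higher and 537 lower. The level here is a mean that includes Δpac-3 itself. When the parts were set instead by the level in the Δmus-52 low-Pi libraries, the shares were 89.8%, 66.4%, 53.7% and 45.7% from the lowest part to the highest. This is no independent check, because a gene with little transcript in the control strain in both Pi conditions falls in the lowest part on that account, and 325 of the 600 up-regulated genes were also up-regulated in low-Pi.

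**Figure D1:**
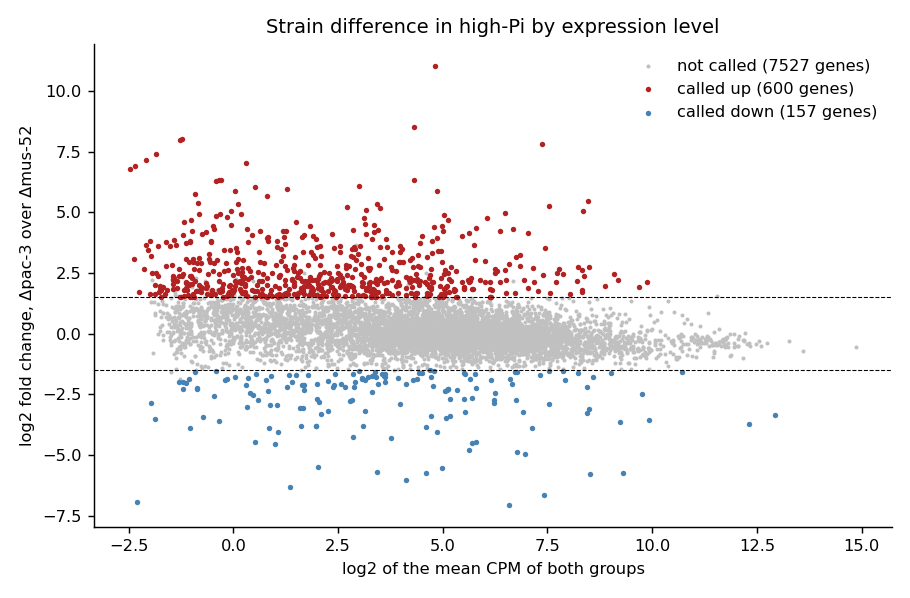
Each point is 1 of the 8284 genes, with the log2 of its mean CPM of both groups on the x axis and the log2 fold change of Δpac-3 over Δmus-52 in high-Pi on the y axis; dashed lines mark 1.5 and -1.5. Both the 600 genes called up and the 157 called down lie mainly at low levels and reach the highest. From the lowest to the highest of 4 equal parts by mean log2 CPM, 414, 120, 39 and 27 were called up. In the same parts 78, 40, 17 and 22 were called down.

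The median up-regulated gene had 6.67 CPM in Δpac-3 and 1.22 CPM in Δmus-52. A mean under 1 CPM in Δmus-52 was found for 276 of the 600, and for 784 of all 8284 tested genes. For 6 of the 600 no count was found in any Δmus-52 library, and no other tested gene lacked counts there. Such genes can pass the filter on low counts only through Δpac-3, so their direction was fixed in advance. The median down-regulated gene had 3.41 CPM in Δpac-3 and 16.7 CPM in Δmus-52. The sums of transcript did not follow the numbers of genes. All tested genes together summed to 915000 CPM in Δpac-3 and 1090000 CPM in Δmus-52. Neither the sums given here nor those of gene lists below were corrected for that difference. The up-regulated genes summed to 26700 CPM in Δpac-3 and 5070 CPM in Δmus-52, and the far fewer down-regulated genes summed to 5650 CPM in Δpac-3 and 43300 CPM in Δmus-52. The thiamine genes NCU06110 and nmt-1 carried much of this. Without them the remaining 155 down-regulated genes summed to 3530 CPM in Δpac-3 and 19600 CPM in Δmus-52, a difference of -16100 CPM, against a difference of 21600 CPM in the up-regulated genes. Genes that carry a symbol in the annotation were up-regulated in 35 of 1083 cases (3.23%) and down-regulated in 26 (2.40%). Genes known by a locus tag alone were up-regulated in 565 of 7201 cases (7.85%) and down-regulated in 131 (1.82%). Their median level in Δmus-52 was 27.4 CPM, against 75.9 CPM for genes with a symbol, and the part of the level in this difference was not tested.

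**Figure D2:**
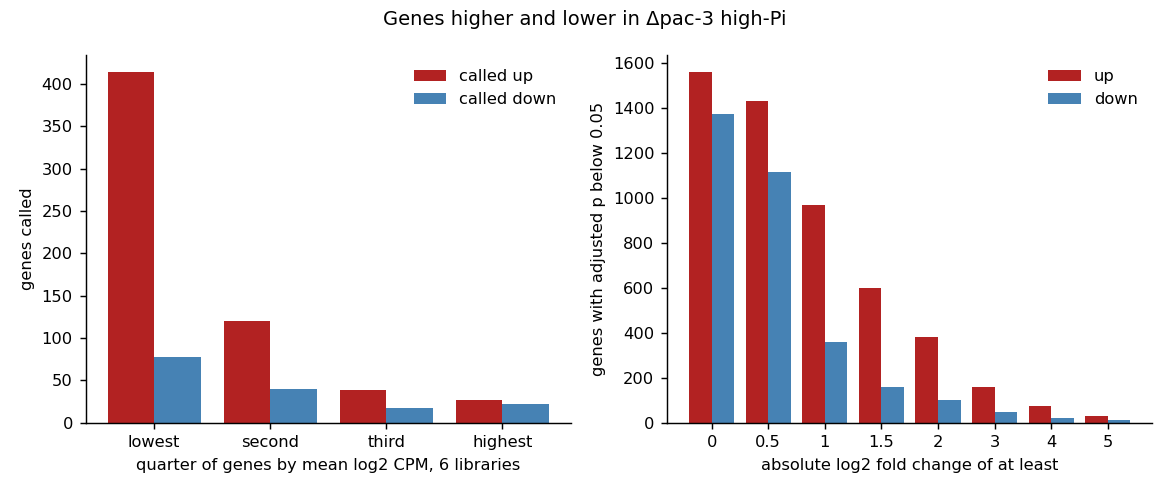
Left, the number of genes called up (red) and down (blue) in each of 4 equal parts of the 8284 genes by mean log2 CPM over the 6 libraries; right, the number of genes with an adjusted p below 0.05 at or past each absolute log2 fold change. The excess of up-regulated genes is widest in the lowest part (414 against 78), and on the right it opens between a fold change of 0.5 and 1.5.

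Genes for transport, proteolysis and lipid oxidation stood among the largest increases. The amino-acid permease INDA1 (NCU07129) had 166, 394 and 422 CPM in Δpac-3, against 0.974, 1.30 and 2.07 CPM in Δmus-52, a log2 fold change of 7.83 ± 0.51 (SE, adjusted p = 0.000152). An oligopeptide transporter (NCU09773) had 129, 26.8 and 13.8 CPM in Δpac-3, while only 3 counts were found over the 3 Δmus-52 libraries. The ratio of its summed counts, scaled by library size, was 2250 (95% exact interval 770 to 10900, for counting error alone). Every Δpac-3 library was far above the control for both transporters, but INDA1 was lowest in library I and NCU09773 was highest there. A second oligopeptide transporter, NCU04991, averaged 22.0 ± 7.57 CPM in Δpac-3 and 0.603 ± 0.0848 CPM in Δmus-52 (SD, n = 3 each). The gene of an endothiapepsin, an aspartic protease (NCU08739), had 555, 270 and 258 CPM in Δpac-3, against 10.4, 9.29 and 8.59 CPM in Δmus-52 (log2 fold change 5.26 ± 0.35, adjusted p = 0.000173). A fatty acid oxygenase (NCU05858) had 91.7, 25.9 and 54.1 CPM in Δpac-3, against 1.13, 1.03 and 0.733 CPM in Δmus-52. The CipC protein gene (NCU04197) averaged 39.5 ± 13.6 CPM in Δpac-3 and 0.114 ± 0.0633 CPM in Δmus-52, a log2 fold change of 8.50 ± 0.48. It had 3, 3 and 7 counts in the Δmus-52 libraries. Both NCU09773 and NCU04197 passed the filter on low counts through Δpac-3 alone, so their direction was fixed in advance. The 10 largest increases were taken among modulated genes without overlap and with at least 10 CPM in Δpac-3. The other 4 of them, NCU06912, NCU09964, NCU16472 and NCU09484, have no known function in the sources used here and had log2 fold changes of 6.32, 6.08, 5.35 and 5.21. NCU06912 lost its call without any one of the 3 Δmus-52 libraries, and the largest of its adjusted p-values was 0.0684. Without Δpac-3 library I its log2 fold change was 3.27.

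Most of the 5 largest increases by the amount of transcript were in genes well expressed in the control. The exception, NCU04276, averaged 15.7 CPM in Δmus-52, where the median of all tested genes was 31.1 CPM. It had 306, 1768 and 12.7 CPM in Δpac-3, so that library III lay within the control range. The β-1,3-glucanosyltransferase gene gel-3, whose product remodels the glucan of the cell wall, had 1627, 1364 and 1620 CPM in Δpac-3, against 343, 367 and 346 CPM in Δmus-52 (log2 fold change 2.13 ± 0.13, adjusted p = 0.000105). It was even among the libraries of each group. The b-ZIP transcription factor gene IDI4 (NCU08055) had 1533, 616 and 615 CPM in Δpac-3, against 155, 157 and 196 CPM in Δmus-52. It stood highest in library I, without which its log2 fold change was 1.85, against 2.44 with all libraries. The uncharacterized genes NCU08229 and NCU09914 had 542, 1665 and 1672 CPM and 645, 1394 and 846 CPM in Δpac-3, against 202, 269 and 553 CPM and 144, 178 and 299 CPM in Δmus-52. Both were lowest in library I of each strain. NCU08229 overlapped between the groups, and its adjusted p of 0.0250 lost the threshold in 3 of the 6 fits that left out a library (largest adjusted p 0.0942).

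Thiamine genes held the largest decreases in the amount of transcript. The thiazole biosynthetic enzyme (NCU06110), which makes one moiety of thiamine, had 1305, 1390 and 1489 CPM in Δpac-3, against 15700, 15320 and 11680 CPM in Δmus-52 (log2 fold change -3.35 ± 0.16, adjusted p = 6.03e-05). Its partner nmt-1 (no message in thiamine-1), of the pyrimidine branch, had 852, 1029 and 287 CPM in Δpac-3, against 12090, 9273 and 6905 CPM in Δmus-52. The groups were far apart in both genes, and nmt-1 was lowest in library III of each strain. Their mean differences of -12840 and -8699 CPM were larger than those of every other modulated gene in either direction. Next came inl, the inositol-1-phosphate synthase gene, with 850 ± 158 CPM in Δpac-3 and 2502 ± 305 CPM in Δmus-52, and a formamidase (NCU02361), with 153 ± 59.3 CPM in Δpac-3 and 1799 ± 85.1 CPM in Δmus-52. The call of inl, at a log2 fold change of -1.56, was lost without Δmus-52 library I or Δpac-3 library III, where the fold change fell short of the threshold. NCU06110 overlaps another annotated gene, and without strand information reads of the 2 cannot be told apart. The same limit holds for pho-4, NCU01064, NCU07894 and ph7 among the decreases given below.

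Among modulated genes without overlap and with at least 10 CPM in Δmus-52, the largest decrease by fold change was that of a transport gene. The phosphate permease gene pho-4 (phosphorus-4), one of the genes of phosphate acquisition, had 0.810, 1.10 and 2.35 CPM in Δpac-3, against 161, 153 and 256 CPM in Δmus-52 (log2 fold change -7.05 ± 0.44, adjusted p = 0.000144). The sodium pump gene ena-1 had 15.8, 14.1 and 40.6 CPM in Δpac-3, against 1125, 1200 and 1413 CPM in Δmus-52 (-5.73 ± 0.47). The menadione-induced gene mig-3 had 13.5, 12.5 and 13.2 CPM in Δpac-3, against 862, 626 and 660 CPM in Δmus-52 (-5.78 ± 0.18, adjusted p = 2.21e-05). The first 2 were highest in Δpac-3 library III, while mig-3 was level across the Δpac-3 libraries. The others were gh47-6, a glycosylhydrolase family 47 gene, at -6.01, the oligopeptide transporter 2 gene NCU07894 at -5.53, and NCU02880, NCU01064, NCU07748 and NCU09271, of unknown function, at -6.63, -5.74, -4.94 and -4.86. With mus-52 itself at -5.69, these make up the 10 largest decreases among modulated genes without overlap and with at least 10 CPM in Δmus-52.

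**Figure D3:**
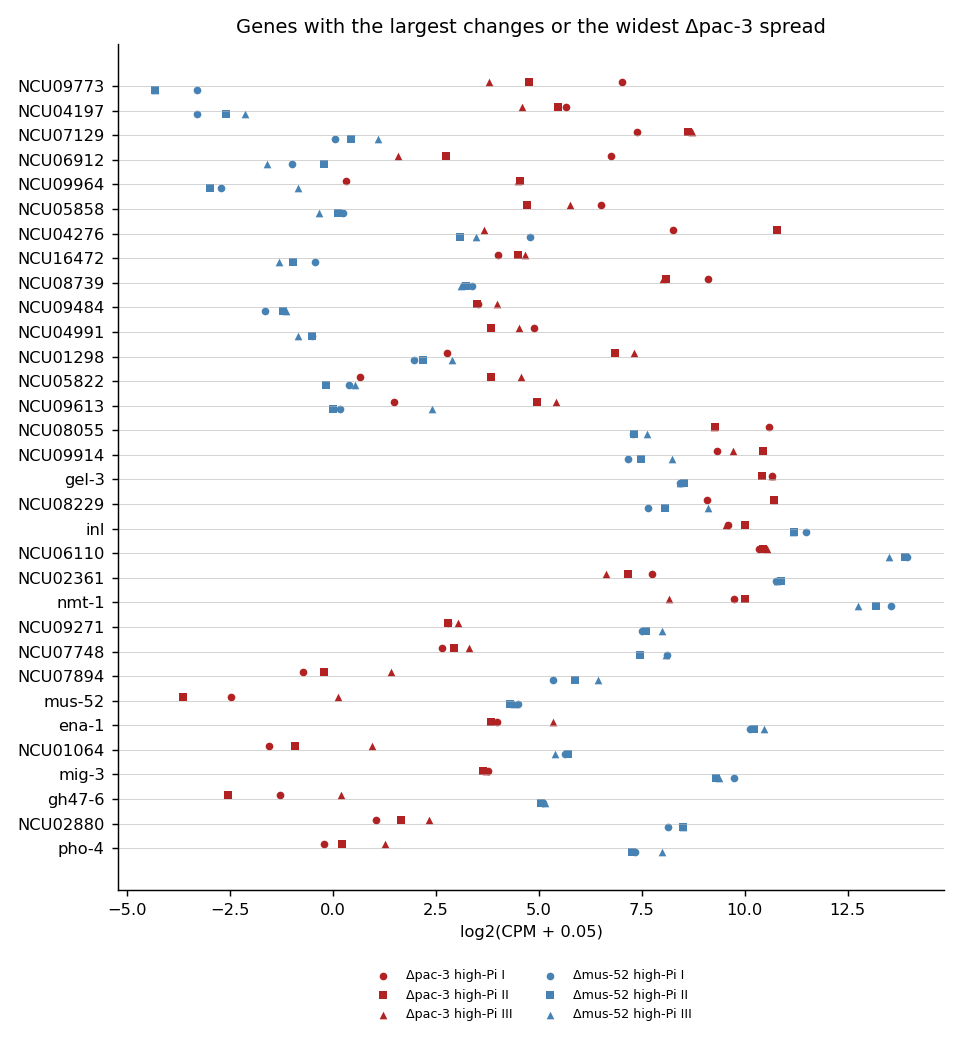
Log2(CPM + 0.05) of the genes with the largest changes by fold or by CPM and of the 6 modulated genes with the widest Δpac-3 range, ordered by fold change, with the Δpac-3 libraries in red above the Δmus-52 libraries in blue and a marker for each replicate. The Δpac-3 points of NCU04276, NCU06912 and NCU09964 are spread widely while those of mig-3, NCU09271 and NCU06110 coincide.

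The same comparison was read over gene lists, of which 27 had at least 3 tested members. Those of primary metabolism were lower by small steps that rarely reached the fold threshold. Of 63 amino acid biosynthesis genes, 40 had an adjusted p below 0.05 and were lower, 1 was higher and 22 did not pass, with a median log2 fold change of -0.65 against -0.01 over all genes. By the same rule 16.6% of all genes were lower and 18.8% higher. In the highest of the 4 parts by level the median was -0.18, with 537 of 2071 genes lower and 191 higher. The lists were not matched to other genes by level. Of the 63, only cys-14, whose product is a sulfate permease and not an enzyme of synthesis, passed both thresholds (19.4 ± 11.5 CPM in Δpac-3 and 130 ± 28.0 CPM in Δmus-52). The largest steps among the enzymes were those of aro-7 (-1.44 ± 0.15) and pro-3 (-1.41 ± 0.13). All 6 purine biosynthesis genes were lower at adjusted p-values of 0.0366 or less, with a median of -0.76, and 12 of 17 tricarboxylic acid cycle genes (median -0.57) and 13 of 22 genes of mitochondrial protein import (median -0.50) were lower as well. Adenine gene ad-4 had 292, 286 and 291 CPM in Δpac-3, against 552, 546 and 490 CPM in Δmus-52. With library totals as the only scaling the medians of these 4 lists were -0.39, -0.49, -0.31 and -0.24 and the numbers lower were 29, 3, 7 and 9. The medians of the 29 respiratory complex I subunits, 30 proteasome subunits, 14 vacuolar ATPase subunits and 20 peroxins lay between -0.14 and 0.21. By the adjusted p alone 6, 1, 0 and 3 of these genes were higher and 2, 1, 0 and 1 lower, and none was modulated by edgeR or by DESeq2. At an unadjusted p below 0.05, 10, 1, 0 and 5 of these genes were higher and 2, 1, 0 and 1 lower in Δpac-3.

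Larger fold changes were found among genes of iron and phosphate supply. All 6 genes of the iron and siderophore list were down-regulated, with log2 fold changes from -4.31 to -2.09, where 1.90% of all genes were down-regulated. The members had been taken from genes the study discusses, so the list is not independent evidence of its direction. The zinc/iron transporter NCU02879 had 0.616, 1.49 and 1.78 CPM in Δpac-3, against 19.7, 25.9 and 32.1 CPM in Δmus-52, and the non-ribosomal peptide synthetase NCU08441 had 10.1, 5.97 and 12.8 CPM in Δpac-3, against 49.7, 62.5 and 76.3 CPM in Δmus-52. The list summed to 54.6, 63.3 and 115 CPM in Δpac-3 libraries I, II and III, against 317, 449 and 542 CPM in Δmus-52, so library III held the most in each strain. All 6 calls held without any one Δpac-3 library. Of 10 phosphate acquisition genes 3 were down-regulated, the permease genes pho-4 and pho-5 and the phytase gene pht-1, and 1 was up-regulated, the 3-phytase A gene NCU03255, against 1.90% down and 7.24% up over all genes. The study reports these modulated genes from the same data, so their share is no independent evidence either. The regulator gene nuc-1 had a log2 fold change of 0.17 (adjusted p = 0.395). The call of NCU03255, with 155, 52.1 and 34.3 CPM in Δpac-3 and 16.7, 18.4 and 16.9 CPM in Δmus-52, was lost in 4 of the 6 fits that left out a library. None of the 7 pH signalling genes was modulated by edgeR or by DESeq2. By the adjusted p alone 2 were higher and 2 lower, and at an unadjusted p below 0.05 these numbers were 2 and 3. The deleted gene pac-3 is itself a member of this list and among the lower genes.

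Cation pumps and wall genes changed in both directions. Of the 7 P-type ATPases, 57.1% were modulated, against 9.14% of all genes: ena-1, ph7 (-4.50) and the calcium-transporting ATPase 3 gene NCU07966 (-3.89) were down-regulated, and nca-3, a calcium pump gene at 3.29 CPM or less, was up-regulated. The study reports the down-regulated members as repressed in the same data, so this share is no independent evidence. Of 69 glycosyl hydrolases 6 were up-regulated and 3 down-regulated, and by the adjusted p alone 21 were higher and 10 lower. Over all genes 9.14% were modulated, and by the adjusted p alone 18.8% were higher and 16.6% lower. The largest increase of these was that of gh5-1, with 23.5, 18.3 and 20.8 CPM in Δpac-3, against 2.05, 1.19 and 2.00 CPM in Δmus-52. Of 26 cell wall assembly genes 4 were up-regulated and 1 down-regulated, 19.2% of the list against 9.14% of all genes. The pair gel-3 and gel-4, which encode enzymes of 1 family, moved apart: gel-4 had 62.2, 60.1 and 75.4 CPM in Δpac-3, against 545, 622 and 741 CPM in Δmus-52 (-3.27 ± 0.17). The catalase gene cat-3, for removal of hydrogen peroxide, was down-regulated (28.4 ± 1.85 CPM in Δpac-3, 186 ± 43.8 CPM in Δmus-52), and the polyketide synthase gene pks-3 was up-regulated (95.8, 39.7 and 34.4 CPM in Δpac-3, against 5.41, 6.92 and 3.72 CPM in Δmus-52).

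Genes of conidia and conidiation, which mark the other cell types a germinating culture can hold, were higher in part and lower in part. Of 21 such genes, 5 were up-regulated and none down-regulated (8 and 2 at an unadjusted p below 0.05, 6 and 0 with DESeq2), against 7.24% up and 1.90% down over all genes, none was at 0, and the list summed to 3800 to 5080 CPM in Δpac-3 and 4720 to 5770 CPM in Δmus-52. The hydrophobin gene eas had 25.8, 88.7 and 134 CPM in Δpac-3, against 5.96, 6.50 and 3.01 CPM in Δmus-52 (4.01 ± 0.61, adjusted p = 0.00306). The conidiation regulator fl (fluffy) had 22.3, 25.5 and 72.9 CPM in Δpac-3, against 7.52, 10.2 and 13.8 CPM in Δmus-52, and its call was lost without Δpac-3 library III, or without Δmus-52 library I or II (largest adjusted p 0.0716). The remaining 3 were con-8, ccg-9 and ecd-2, and the call of con-8 was lost without Δmus-52 library I or II (largest adjusted p 0.0813). The abundant conidial genes con-6 and cat-1 had log2 fold changes of -0.75 and -0.39, with adjusted p-values of 0.322 and 0.399. Without Δpac-3 library I the list had 6 genes up-regulated and 2 down-regulated. In bulk cultures, fewer cells of a type and less RNA per cell cannot be told apart, and the part of these cells in other results was not tested. By the adjusted p alone 6 of the 21 genes of this list were higher and 2 were lower. The lower members were the carotenoid genes al-1 and al-3 (adjusted p-values 0.00820 and 0.00781), which did not reach the fold threshold.

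The 3 Δpac-3 libraries differed among themselves more than any other group of the series. The biological coefficient of variation within the group was 0.264, against 0.133 in Δmus-52 high-Pi, and it was 0.134 in Δpac-3 low-Pi and 0.107 in Δmus-52 low-Pi. Of the 8284 genes, 6249 (75.4%) had a larger SD of log2 CPM in Δpac-3 than in Δmus-52, with medians of 0.243 and 0.140. A range of at least 1 on the log2 scale was found for 1281 genes in Δpac-3 and 467 in Δmus-52. The wider spread was present at every level of expression, since the median SD was 0.386, 0.245, 0.192 and 0.209 in Δpac-3, against 0.288, 0.140, 0.109 and 0.109 in Δmus-52, from the lowest of the 4 parts by level to the highest. Correlations of log2 CPM across genes were 0.976 between libraries I and II, 0.968 between I and III and 0.980 between II and III of Δpac-3, and 0.990 to 0.993 among those of Δmus-52. When limma weighted the libraries by their fit, the Δpac-3 libraries had weights of 0.563, 0.753 and 0.459 and the Δmus-52 libraries 1.26, 2.92 and 1.40.

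No single Δpac-3 library carried the excess of up-regulated genes. Against the mean of the 3 Δmus-52 libraries, library I alone had 526 genes at least 1.5 above and 233 at least 1.5 below on the log2 scale, library II had 713 and 177, and library III had 640 and 206. Single Δmus-52 libraries, set against the other 2, had 7 to 35 genes above and 15 to 29 below. Of the 600 up-regulated genes 321 were past the fold threshold in all 3 Δpac-3 libraries, 225 in 2, 52 in 1 and 2 in none. Of the 157 down-regulated genes these numbers were 108, 41, 8 and 0. The groups did not overlap for 574 of the up-regulated and for all 157 down-regulated genes, where 25.2% of all genes lay wholly above and 26.3% wholly below in Δpac-3. This description uses the libraries on which the genes were called. Library I was the weakest in its increases, being nearest to the control for 314 of the 600, but for the down-regulated genes it was the farthest from it for 77 of 157. The numbers of modulated genes were 722 up and 171 down without library I, 516 and 160 without II, and 600 and 167 without III.

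**Figure D4:**
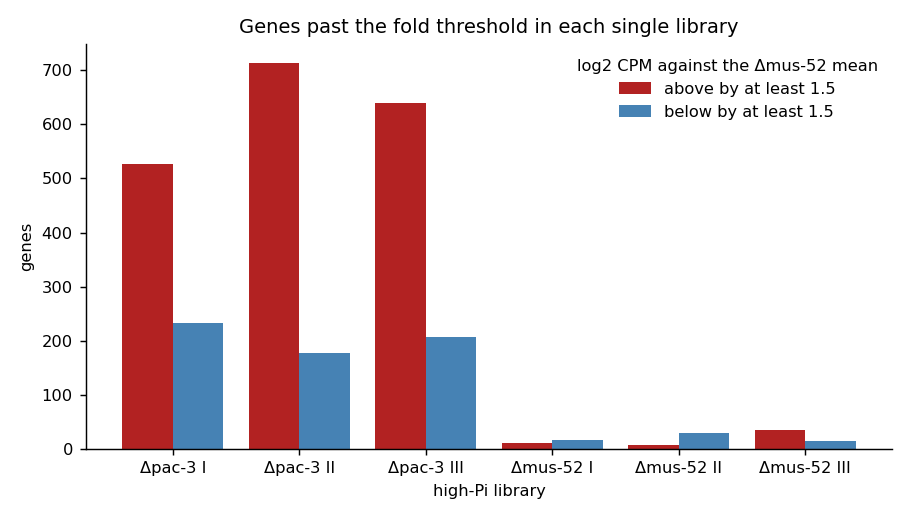
Number of genes whose log2 CPM lay at least 1.5 above (red) or below (blue) the Δmus-52 mean in each single high-Pi library; each Δmus-52 library was set against the mean of the other 2. All 3 Δpac-3 libraries show more genes above than below, from 526 against 233 in library I to 713 against 177 in library II.

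The up-regulated genes themselves were uneven across the Δpac-3 libraries. Of the 600, 297 had a range of at least 1 and 78 of at least 2 on the log2 scale among the 3, and among the 157 down-regulated genes 69 and 12 did. The 6 modulated genes with the widest range at a mean of 10 CPM or more were all up-regulated, and they did not share a pattern. NCU04276 had 306, 1768 and 12.7 CPM in Δpac-3, against 27.7, 8.37 and 10.99 CPM in Δmus-52, so that library III lay within the control range. NCU06912 had 107, 6.59 and 2.95 CPM in Δpac-3, against 0.453, 0.803 and 0.278 CPM in Δmus-52, and was highest in library I. The remaining 4 were lowest in library I. NCU01298 had 6.77, 114 and 158 CPM in Δpac-3, against 3.83, 4.47 and 7.38 CPM in Δmus-52. NCU09613 had 2.75, 30.7 and 42.4 CPM in Δpac-3, against 1.08, 0.956 and 5.21 CPM in Δmus-52. For both of these genes library I overlapped the control. NCU09964 (1.20, 23.2 and 22.5 CPM in Δpac-3) stayed above its control libraries of 0.101, 0.0764 and 0.505 CPM, and NCU05822 (1.52, 14.2 and 23.6 CPM in Δpac-3) stayed above 1.26, 0.841 and 1.39 CPM. The calls of NCU04276, NCU01298, NCU09613 and NCU05822 were each lost in at least 2 of the 6 fits that left out a library, with largest adjusted p-values of 0.105, 0.0673, 0.122 and 0.0732.

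The deviation of library I ran along the phosphate response of the control. Across 8465 genes, the difference of library I from the mean of libraries II and III correlated with the high-Pi minus low-Pi difference of Δmus-52 at r = 0.50, and at 0.64 over the 4233 genes above the median level. The 3 deviations sum to 0 for each gene, so the values of libraries II and III (r = -0.31 and -0.30) follow in part from that of library I and are no separate results. The Δmus-52 libraries of that difference share no library with the Δpac-3 deviations, but genes are not independent replicates and no p is given. For the 593 genes at least 1 lower in high-Pi than in low-Pi in Δmus-52, the median deviation of library I was -0.87. For the 59 genes at least 1 higher, it was 0.23. With the strain difference in low-Pi the deviation of library I correlated at 0.06. What set library I apart was not tested.

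**Figure D5:**
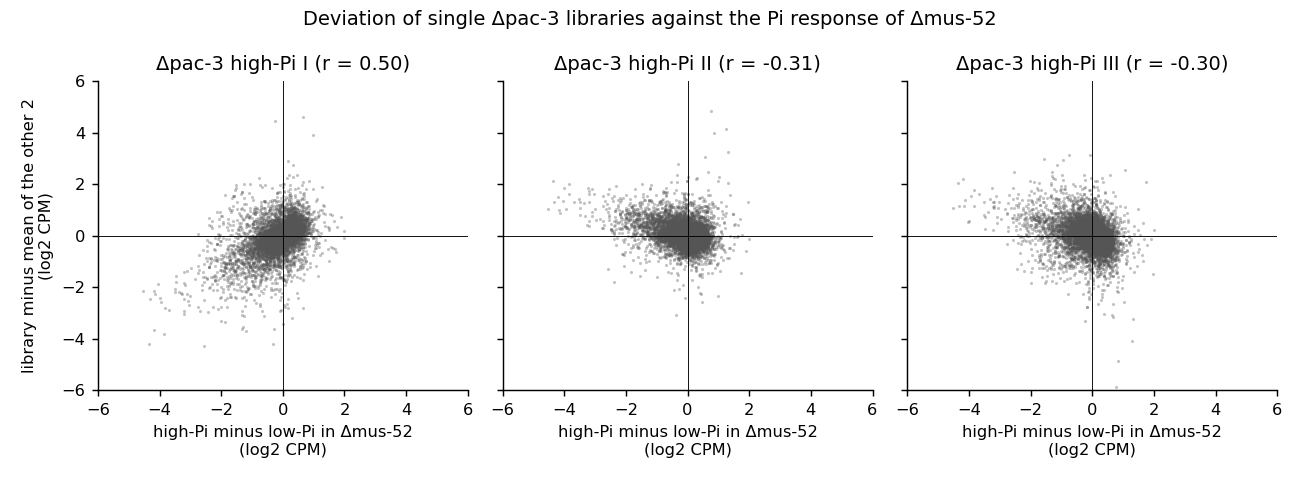
For each Δpac-3 high-Pi library, the deviation of each of 8465 genes from the mean of the other 2 Δpac-3 high-Pi libraries (y axis, log2 CPM) is set against the high-Pi minus low-Pi difference of Δmus-52 (x axis, log2 CPM). The cloud slopes upwards for library I (r = 0.50) and, since the 3 deviations of a gene sum to 0, downwards for libraries II and III (r = -0.31 and -0.30).

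Library III of Δpac-3 kept more of most of the transcripts that had nearly vanished. For the 8 genes with a log2 fold change of -5 or lower and at least 10 CPM in Δmus-52, the level left in library III was 1.24 to 4.90% of the control mean, against 0.426 to 1.88% in library I and 0.142 to 1.75% in library II. Library III was the highest for 7 of the 8, and mig-3 was the exception, with 13.5, 12.5 and 13.2 CPM in libraries I, II and III. Without library III the log2 fold changes of mus-52, gh47-6, NCU01064, ena-1 and NCU07894 were -8.01, -7.16, -6.92, -6.37 and -6.49. The gene mus-52 was among them, with 1.03 CPM in library III, against 0.130 and 0.0298 CPM in libraries I and II, and 22.6, 19.6 and 21.0 CPM in Δmus-52. Over all 97 down-regulated genes at this level the median share left was 16.4% in library I, 20.9% in II and 20.8% in III. The cause of the residue in library III was not tested.

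Whether the strain difference depended on Pi was tested as the interaction of strain and Pi over the 12 libraries, where 886 of 8465 genes (10.5%) passed an adjusted p below 0.05. Of the 600 genes up-regulated in high-Pi, 325 were also up-regulated in low-Pi, 238 were tested there and not modulated, 30 were not tested and 7 were down-regulated. A pass in 1 condition alone is no test of a difference, and an interaction was found for 113 of the 600, all of them with a higher fold change in high-Pi. In these 113 the median high-Pi minus low-Pi difference was 0.20 in Δpac-3 and -1.86 in Δmus-52, and the difference was below 0 in Δmus-52 for all 113. The 113 were chosen by their rise in high-Pi and by this test, which favours both the sign of the interaction and these values. Of the 157 down-regulated genes 122 were down-regulated in low-Pi as well. An interaction was found for 14, and as high-Pi minus low-Pi it was positive for 5 and negative for 9. The shares of up-regulated and down-regulated genes with an interaction were not compared by a test. The number of genes with an interaction was most sensitive to single libraries. It was 1585 without Δpac-3 high-Pi library I, and 514 and 392 without Δmus-52 high-Pi library I or II. It was 490, 579 and 560 without Δpac-3 low-Pi library I, II or III, and 451 and 450 without Δmus-52 low-Pi library II or III.

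Modulated genes stood next to each other in the genome. Of the 600 up-regulated genes 242 (40.3%) had an up-regulated gene as nearest tested neighbour on at least 1 side, and of the 157 down-regulated genes 34 (21.7%) had a down-regulated neighbour. Over all genes placed in the annotation, 13.3% had an up-regulated and 3.66% a down-regulated neighbour on at least 1 side. Genes that were not tested were passed over. Runs of at least 4 consecutive tested genes numbered 16 among the up-regulated and 1 among the down-regulated genes. The longest, of 7 genes, was NCU02913, NCU16472, NCU16473, NCU02910, NCU16474, NCU02909 and NCU02908. In it NCU02910 was the most abundant, with 98.6, 245 and 241 CPM in Δpac-3, against 9.55, 9.36 and 10.4 CPM in Δmus-52, and it was lowest in library I. NCU16473 and NCU02908 had 87 and 39 counts over the Δpac-3 libraries and none in Δmus-52, so they were at least 36.6-fold and 16.4-fold higher when 3 counts are set as the floor over the group. Both passed the filter on low counts through Δpac-3 alone, as did NCU16474, with 5, 7 and 8 counts in Δmus-52.

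Other runs held secondary metabolism and degradative enzymes. The 5 genes NCU04862, pks-3, ada-6, NCU04871 and NCU04872 were up-regulated by 1.65 to 3.41, where ada-6 encodes a zinc cluster transcription factor (65.4, 38.9 and 27.4 CPM in Δpac-3, against 9.37, 11.9 and 8.62 CPM in Δmus-52). In the run of NCU06328, NCU06327, NCU06326 and NCU06325 the benzoate 4-monooxygenase cytochrome P450 gene NCU06327 had 616, 624 and 643 CPM in Δpac-3, against 43.8, 87.8 and 149 CPM in Δmus-52. Here the control libraries were the uneven ones. NCU09178, NCU09181, NCU09182 and NCU09183 and, past the single unmodulated gene NCU09184, NCU09185, NCU09186, NCU09187 and NCU09188 rose by 2.22 to 3.53. Among them the kynureninase gene NCU09183, for breakdown of tryptophan, had 166, 212 and 223 CPM in Δpac-3, against 12.7, 26.8 and 48.8 CPM in Δmus-52. The oligopeptide transporter gene NCU09773 stood in a run with NCU09775, NCU09774, NCU09772 and NCU09771, and 6 further genes formed the run of NCU09355, NCU16597, NCU09356, NCU09357, NCU09358 and NCU09777. The 4 genes NCU05005, NCU05004, NCU10597 and ci-1 (cycloheximide-inducible-1) included the abundant ci-1, with 269, 463 and 452 CPM in Δpac-3, against 55.2, 68.7 and 89.7 CPM in Δmus-52. Members of these runs could lose their call with 1 library left out: among the 6 fits of that kind, NCU05005 lost its call in 2, NCU05004 in 1, NCU10597 in 3, NCU04871 in 3 and NCU09777 in 2. The down-regulated run, NCU07901, NCU07900, NCU07899 and NCU07898, fell by 2.95 to 6.31 on the log2 scale, and none of its members exceeded 8.07 CPM in any library.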

How the data were processed

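The raw counts per gene and library were used as the authors deposited them. Reads of 100 bp from both ends had been trimmed at Phred 20. The submitters' processing notes name FastQC 0.11.7, Bowtie2 2.3.4 and DESeq2. The counting tool, strand setting and annotation are not given in the sources used here. The deposited tables of the authors' own strain comparisons, with fold changes and p-values, were not used.

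The 6 high-Pi libraries were fitted in edgeR 4.0.16 (limma 3.58.1, R 4.3.3), with filterByExpr (minimum count 10, minimum total 15), TMM factors and the quasi-likelihood test. The standard error is the log2 fold change divided by the root of F. Log2 CPM used a prior count of 2. DESeq2 1.42.0, other scalings, filters, thresholds and each library left out served as alternatives. Scripts were tested on simulated data. Depth was 28463224 to 66931215 counts. The interval of a ratio of counts covers counting error only, and the intervals of shares treat genes as independent. P-values measure the spread between the replicates, described as biological.

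Symbols and gene order come from an NC12 annotation table (8283 of 8284 tested genes found) and product names from the study's gene table. Of 132 named genes 13 overlap another annotated gene, among them NCU06110, pho-4, NCU01064, NCU07894, ph7, NCU09484, NCU01298, NCU05822 and stk-21. Reads shared by paralogs were not examined. No sequences or coordinates are printed.

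The members and lists were chosen with earlier results of these data known. Named were pac-3 and mus-52; the 10 largest increases and 10 largest decreases by fold among modulated genes without overlap and with at least 10 CPM in the higher group; the 5 largest of each by CPM difference; the 6 with the widest Δpac-3 range; up to 4 modulated members of each list; and runs of at least 4 neighbours. Other genes were chosen after their values were seen. Of the 41 lists written, 14 had fewer than 3 members matched by symbol or locus tag and tested, and were dropped. The lists were also read by the adjusted p alone, which was chosen after seeing the data.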

Additional observations from a re-analysis of the deposited data

Results flagged for a closer look

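For 22 of the named genes the strain difference itself differed between high-Pi and low-Pi, by edgeR's test of the interaction of strain and Pi over the 12 libraries (adjusted p from 0.00184 to 0.0497). The values below are the interaction on the log2 scale, high-Pi minus low-Pi, and a positive value means a higher fold change in high-Pi.

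Among neighbours in runs the interaction was 3.69 for NCU07108, 2.93 for NCU07233 and 2.47 for NCU07101, whose fold changes were 1.59, 1.59 and 1.97 in high-Pi and -2.08, -1.34 and -0.50 in low-Pi. Their high-Pi calls were lost in 4, 1 and 2 of the 6 fits that left out a library. It was 2.96 for ci-1 (2.47 in high-Pi, -0.48 in low-Pi) and 1.48 for its neighbour NCU10597. For NCU09183, the kynureninase gene, and its neighbours NCU09181, NCU09187 and NCU09188 it was 2.25, 1.66, 1.81 and 1.88. It was 2.21 for NCU02327 and 1.76 for NCU16472.

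Among the genes with the largest changes, the interaction was 4.81 for NCU09964, 3.99 for NCU09613, 2.49 for NCU08229 and 1.91 for NCU09914. It was 0.58 for gel-3 and 0.55 for gh76-3, the smallest of these. Among down-regulated genes it was 2.78 for pho-4 and 3.04 for NCU01064, with low-Pi fold changes of -9.83 and -8.76. In Δpac-3 these 2 genes were near the floor, at 1.42 and 0.877 CPM in high-Pi and 0.322 and 0.203 CPM in low-Pi. Library III was the highest of the Δpac-3 high-Pi libraries for both. Without it their high-Pi fold changes were -7.61 and -6.92, and the interaction is limited by these low levels. It was -2.29 for NCU07748, -0.85 for inl and -0.70 for NCU06110, which were reduced further in high-Pi.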

How the results depend on the processing

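The named genes kept their direction in every alternative of tool, scaling, prior count, block and libraries. The 757 modulated genes became 468 (355 up) with a minimum count of 100, 260 (190 up, 70 down) when the test was limited to the top 60% of genes by summed counts, and 217 (155 up, 62 down) when the fold threshold itself was tested. They became 1328 (968 up, 360 down) when a log2 fold change of 1 or more in size was asked for. With DESeq2 there were 682 up and 164 down. Leaving out 1 library gave 635 to 893 genes, 489 to 722 up and 140 to 171 down. With a replicate block there were 567 up and 160 down, 727 in all, and 5 named genes lost their call. Samples of numbers I and III deviated together across the strains (correlations of 0.288 and 0.340), and those of number II did not (-0.185). Between numbers I and III the correlations were -0.382 and -0.372. The 3 deviations of a gene sum to 0 within each strain, so these correlations are no separate results. For I and III the same number gave the highest correlation of the Δpac-3 library. Whether libraries of the same number shared a batch was not tested. The share of up-regulated genes ranged from 71.4% to 86.5% over all alternatives. When the parts by level were set by the low-Pi Δmus-52 level, the shares moved to 89.8%, 66.4%, 53.7% and 45.7% from the lowest part to the highest. In the highest part 27 genes up and 22 down became 32 up and 38 down. The 886 genes with an interaction became 1344 with DESeq2, 1117 with the replicate block and 392 to 1585 when 1 library was left out. Of the 131 named genes called, 34 lost the call in some alternative, most often without Δmus-52 library I (23 genes) or II (22).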

Other observations

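Regulatory and cell biological groups that the comparison has not yet named were mostly near the median of all genes, and the counts below stand against 7.24% up-regulated and 1.90% down-regulated over all genes. Of 60 serine/threonine kinase genes 1 was up-regulated, stk-21 (1.46, 1.58 and 2.49 CPM in Δpac-3, against 0.504, 0.535 and 0.177 CPM in Δmus-52), and of 49 histones and chromatin modifiers 1, nst-6, a gene of the sirtuin family (3.21, 2.63 and 1.23 CPM in Δpac-3, against 0.437, 0.382 and 0.935 CPM in Δmus-52). Both stood at a low level, and nst-6 lost its call in 3 of the 6 fits that left out a library (largest adjusted p 0.0713). Of 32 zinc cluster and other transcription factors ada-6 was up-regulated and tah-2 (tall aerial hyphae-2) down-regulated, with 8.85, 3.94 and 3.87 CPM in Δpac-3, against 19.1, 19.6 and 17.0 CPM in Δmus-52. The wider list of 33 all development altered and tall aerial hyphae genes held the same pair. None of the 10 heat shock proteins and chaperones, nor of the 13 heat shock genes found by symbol, was modulated by edgeR or DESeq2 (medians -0.33 and -0.28), and 5 and 6 of them were lower at an unadjusted p below 0.05.

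Of 16 light and clock genes only the opsin gene nop-1 was up-regulated (6.32, 15.3 and 17.9 CPM in Δpac-3, against 4.26, 4.85 and 4.42 CPM in Δmus-52), and its call was lost in 4 of the 6 fits that left out a library. The clock gene frq had a log2 fold change of -0.10 (adjusted p = 0.643). Among the 4 tested mating genes the pheromone receptor gene pre-2 was up-regulated (2.11, 14.7 and 14.98 CPM in Δpac-3, against 1.11, 0.497 and 1.39 CPM in Δmus-52) and lost its call without Δmus-52 library II (adjusted p = 0.0501), and poi-2 was down-regulated (0.292, 0.806 and 0.831 CPM in Δpac-3, against 9.44, 3.25 and 3.36 CPM in Δmus-52). Of 26 DNA repair genes mus-52 alone was modulated, and of 11 menadione-induced genes mig-3 alone. Of 6 polyketide and nonribosomal peptide synthases pks-3 was up-regulated and NCU08441 down-regulated, and of 6 catalases, peroxidases and superoxide dismutases cat-3 was the 1 gene modulated. The 1 modulated gene of the tricarboxylic acid cycle list, tca-2, was up-regulated (47.5, 35.8 and 59.6 CPM in Δpac-3, against 16.0, 15.3 and 18.8 CPM in Δmus-52), but at a log2 fold change of 1.51 its call was lost without Δmus-52 library I or II or Δpac-3 library III.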
